A study of Mus musculus with 6 samples.

Results

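The chemokine family described here comprised every gene on the array whose symbol marks it as a chemokine ligand of the CC, CXC, CX3C or XC class, as one of their receptors, or as one of the atypical receptors Ackr1 to Ackr4. The rule rested on gene names and used no measured value, though it was chosen with earlier results of these data known. It found 57 of the 19057 annotated genes (36 ligands and 21 receptors), covered by 85 of the 45281 probes. Per the labels, RNA came from lung fibroblasts of 3 wild-type mice (wt, genotype p38+/+) and from 3 knock-in mice that carried the changed p38 allele on both chromosomes (ki, p38ki/ki), and there were 3 Illumina bead arrays for each genotype. All mice were 10 weeks old, and all cultures were grown in DMEM/F12 with 15% FCS (fetal calf serum) and taken at passage 1. The labels name neither the p38 gene that carries the allele, nor the change it makes, nor the strain or sex of the mice. At passage 1 a primary culture can still hold other cells of the lung.

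Chemokines are small secreted or membrane-tethered proteins that direct the movement of cells through membrane receptors that couple to inhibitory G proteins. Atypical receptors bind chemokines without that signal and remove them. Fibroblasts are a source of chemokines for neutrophils and monocytes, and many of these ligand genes are induced through the transcription factor NF-kB. p38 kinases are stress-activated protein kinases, and one of their known actions is to slow the decay of AU-rich mRNAs, among them several chemokine mRNAs.

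Each array detected 17601 to 18531 probes above its negative controls, and the mean background-subtracted signal was 712.3 to 846.7 on wt arrays and 519.4 to 694.7 on ki arrays. Array profiles correlated at 0.9899 to 0.9942 within a genotype and at 0.9791 to 0.9829 between genotypes. The p38 genes Mapk13 (log2 difference 0.84, adjusted p = 0.00717) and Mapk14 (0.29, adjusted p = 0.0224) were higher in ki, while Mapk11 and Mapk12 did not pass. All 10 fibroblast markers were detected on all 6 arrays, as were all 11 tested macrophage markers, so the cultures carried transcripts of both cell types. The genotypes also differed in markers of other cells. Of all genes tested 18.0% passed, 9.74% as higher in ki and 8.31% as lower. All 10 tested mesothelial markers were higher in ki (summed normalised intensity 1691 to 1907 in wt and 10820 to 11600 in ki), and 8 of 10 tested neutrophil markers were lower (13350 to 14120 in wt and 3550 to 4101 in ki). Of 7 tested endothelial markers none passed (summed intensity 2899 to 3127 in wt and 2493 to 2683 in ki, median -0.29; 4 passed as lower with median scaling over all probes), nor did the 1 tested mast cell marker, Kit, while 1 of 4 lung epithelial markers (Cdh1) and 1 of 3 dendritic cell markers (Siglech) were higher in ki. Xist, expressed from the inactive X chromosome, and the Y-linked gene Eif2s3y were both detected on all 6 arrays, and Eif2s3y was 3.08-fold higher in ki (adjusted p = 6.74e-05). That signal came from 1 of the 2 Eif2s3y probes, the other being detected on 1 ki array. The Y-linked gene Kdm5d, detected on 1 wt and 3 ki arrays, was 2.12-fold higher in ki (adjusted p = 0.0265). Its other probe was detected on no array. Xist differed by -0.61 and did not pass (adjusted p = 0.0605), and its other probes gave -0.79, -0.48 and -0.74. Whether an array holds RNA of both sexes, and so of more than 1 mouse, was not tested. What sex-linked expression contributes to the chemokine results was not tested.

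Of the 57 chemokine genes, 31 had a detection p under 0.05 on 3 or more arrays and were tested (54.4%, against 54.6% of all genes). They were 24 ligands and 7 receptors. Levels are normalised log2 intensities of the gene's brightest probe, and differences are ki minus wt on that scale, with SE for the standard error and n = 3 arrays in each genotype. The threshold was an adjusted p of 0.05 in limma's moderated test, with Benjamini-Hochberg adjustment over all 10412 genes tested. Among the 31 tested chemokine genes 13 passed (41.9%), against 18.0% of all genes tested. Of these, 5 were higher in ki (16.1%, against 9.74% of all genes), namely Cxcl1, Ccr2, Ccl21a, Ccl2 and Ccl5. Another 8 were lower (25.8%, against 8.31%), namely Cxcr4, Cxcl14, Ccl8, Ackr4, Ccl3, Cxcr1, Cxcl12 and Ccr6. The 3 arrays of one genotype all lay above the 3 of the other for 18 of the 31 genes (58.1%, against 38.4% of all genes). The family had no common direction: its median difference was 0.02 and that of all genes 0.01, while its median absolute difference was 0.24 against 0.16. Filtering on detection shapes these shares, since a gene detected in one genotype alone enters the test through that genotype. Ccr2, counted among the higher genes, and Ccr6, counted among the lower ones, entered in this way.

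**Figure D1:**
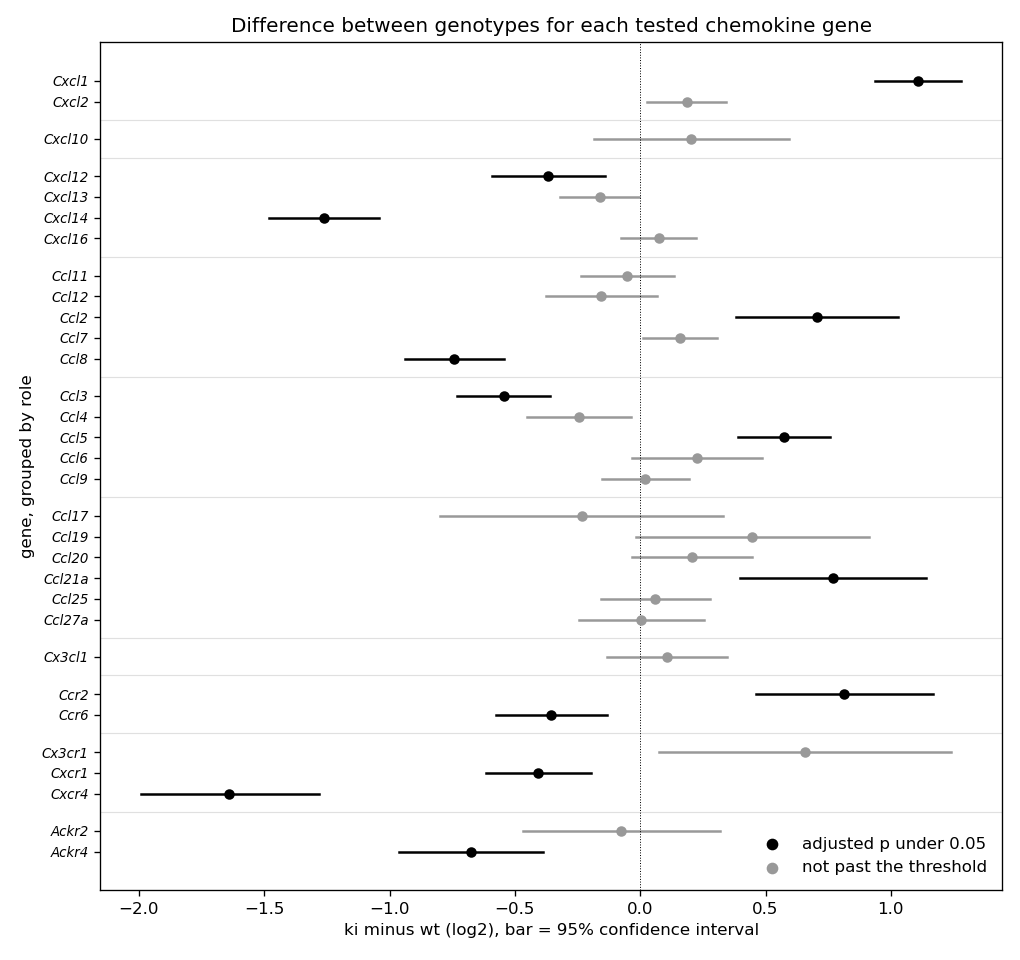
Difference between genotypes (ki minus wt, log2) for each of the 31 tested chemokine genes, grouped by role, with the 95% confidence interval as a bar and n = 3 arrays per genotype. Black points passed at an adjusted p under 0.05 and grey points did not; Cxcr4 (-1.64) and Cxcl14 (-1.26) lie farthest to the left and Cxcl1 (1.11) farthest to the right.

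Changes of at least 2-fold were seen for 3 genes, the ligand Cxcl1 among the higher ones and the receptor Cxcr4 and the ligand Cxcl14 among the lower ones. Among all genes that passed in the same direction, the fall of Cxcr4 ranked 31 in size and that of Cxcl14 ranked 58, of 865. The rise of Cxcl1 ranked 119 of 1014. These genes kept their direction and passed under all 20 alternative ways of processing the arrays, as did Ccl8 and Ccl3. Of the 20, the authors' normalised intensities and the series values hold the same numbers.

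**Figure D2:**
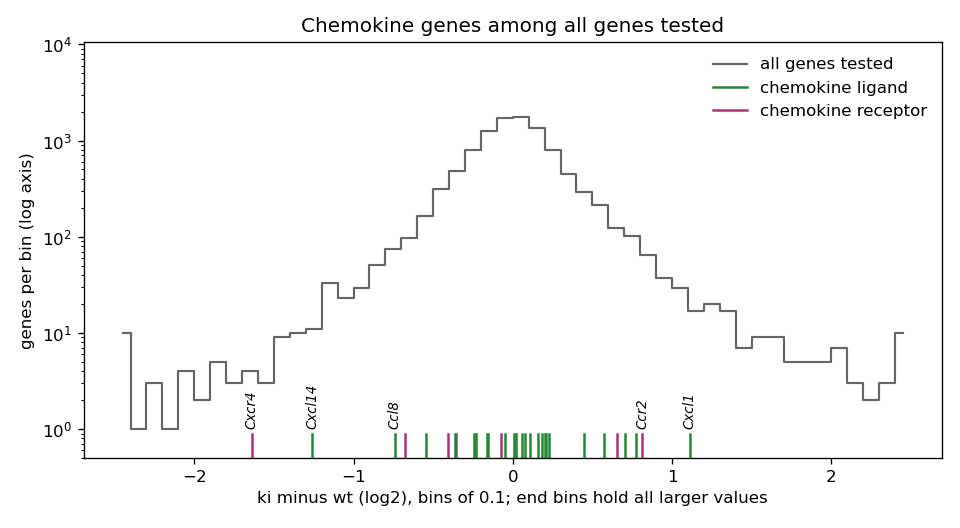
Distribution of the difference between genotypes (ki minus wt, log2, bins of 0.1) over all 10412 genes tested, on a log count axis, with a green mark for each tested chemokine ligand and a purple mark for each tested receptor. Most chemokine genes lie in the dense centre, and Cxcr4, Cxcl14 and Cxcl1 lie in its thin tails.

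The upstream sequences of these 3 genes, and of Cxcl2, the neighbour of Cxcl1, are printed to show which known regulatory motifs lie close to the genes that differed most. They are the 250 bases before the annotated start, 5′ to 3′ on the gene's strand, from RefSeq on GRCm38.p6: chr5:90890995-90891244 (plus strand) for Cxcl1, chr5:90903649-90903898 (plus strand) for Cxcl2, chr13:56296552-56296801 (minus strand) for Cxcl14 and chr1:128592300-128592549 (minus strand) for Cxcr4. Capitals mark motif matches on either strand.
Cxcl1: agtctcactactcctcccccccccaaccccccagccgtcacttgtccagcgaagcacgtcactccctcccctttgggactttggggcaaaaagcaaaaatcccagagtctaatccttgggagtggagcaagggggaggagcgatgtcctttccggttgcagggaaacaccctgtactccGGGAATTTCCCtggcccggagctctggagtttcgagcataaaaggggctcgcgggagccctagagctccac
Cxcl2: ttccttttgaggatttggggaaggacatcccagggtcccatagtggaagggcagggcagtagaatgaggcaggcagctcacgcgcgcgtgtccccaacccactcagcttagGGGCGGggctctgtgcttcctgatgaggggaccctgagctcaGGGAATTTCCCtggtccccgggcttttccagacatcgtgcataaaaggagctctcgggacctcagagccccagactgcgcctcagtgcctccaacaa
Cxcl14: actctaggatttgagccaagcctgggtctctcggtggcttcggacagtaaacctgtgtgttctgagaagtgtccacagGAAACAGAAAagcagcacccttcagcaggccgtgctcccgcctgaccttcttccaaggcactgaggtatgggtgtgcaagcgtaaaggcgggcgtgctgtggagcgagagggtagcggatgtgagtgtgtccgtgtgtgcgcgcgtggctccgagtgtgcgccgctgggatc
Cxcr4: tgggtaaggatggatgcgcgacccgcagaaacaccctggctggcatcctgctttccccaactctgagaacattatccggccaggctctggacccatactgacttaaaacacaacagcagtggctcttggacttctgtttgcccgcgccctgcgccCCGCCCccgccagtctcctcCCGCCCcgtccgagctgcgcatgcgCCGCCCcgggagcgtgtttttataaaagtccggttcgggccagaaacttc

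The motifs searched on both strands were the NF-kB consensus of 10 letters, the AP-1 site TGANTCA, the interferon-stimulated element (GAAA, any 2 bases and GAAA again) and the GC box GGGCGG. Cxcl1 and Cxcl2 each held the NF-kB match GGGAATTTCC, beginning 71 bases before the start in Cxcl1 and 97 bases before it in Cxcl2, and a match shifted by one base, GGAATTTCCC, overlapped it in both. The NF-kB consensus was found in 7.25% of all 32851 promoter windows of this length. Cxcl2 also held 1 GC box, and Cxcr4 held 3, which read CCGCCC on the printed strand; 32.7% of all windows held a GC box. Cxcl14 held 1 interferon-stimulated element, GAAACAGAAA, beginning 172 bases before its start, against 2.98% of all windows. No window of the 4 held the AP-1 letters, which occur in 6.75% of all windows. Over the 43 chemokine genes with a window in the table, 11 held an NF-kB match. Those tested were Cxcl1, which rose, Ccr6, which fell, and Cxcl2, Cxcl10, Ccl20, Ccl9 and Ackr2, which did not pass. A match describes the letters and is not evidence that a factor binds there.

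Cxcl1, a neutrophil attractant of the CXC class that acts through Cxcr2, was higher in ki. Its level was 12.66, 12.70 and 12.73 on the wt arrays and 13.72, 13.82 and 13.89 on the ki arrays. The lowest ki array lay about a full log2 unit above the highest wt array. The rise was 2.16-fold (log2 difference 1.11, SE 0.07, 95% confidence interval 0.94 to 1.28, adjusted p = 0.000195). Cxcl2, the adjacent gene and a ligand of the same receptor, read 11.21, 11.32 and 11.33 in wt and 11.46, 11.47 and 11.49 in ki. Its groups did not overlap either, but the difference of 0.19 (95% confidence interval 0.03 to 0.34) did not pass (adjusted p = 0.107). Whether the Cxcl1 and Cxcl2 differences themselves differ was not tested, nor was the part in them of the mesothelial markers, which rose on the same arrays (median 2.74 over 10). Cxcl15 and Cxcl3, the next genes on the other side of Cxcl1 on chromosome 5, were detected on no array. Beyond them lies the platelet CXC ligand gene Pf4, which fell 2.26-fold (adjusted p = 8.96e-05).

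Cxcr1, a neutrophil receptor of the CXC class, was lower in ki. It read 8.26, 8.41 and 8.37 in wt and 7.94, 8.06 and 7.82 in ki. All 3 wt arrays lay above all 3 ki arrays, and the fall was 1.33-fold (log2 difference -0.41, SE 0.09, adjusted p = 0.0212). The call was lost without wt 2, wt 3, ki 1 or ki 3, with an adjusted p of up to 0.0755. Cxcr2 was detected on no array. Neutrophil markers fell on the same arrays (median log2 difference -2.29 over 10 tested), led by the calcium-binding protein S100a9 (15.2-fold) and the granule enzymes Mpo (at least 10.4-fold, undetected in ki) and Ctsg (at least 3.89-fold, undetected in ki), and Retnlg was not tested. Their part in the Cxcr1 result was not tested, and in RNA from a whole culture fewer cells of a type cannot be told apart from less RNA per cell.

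**Figure D3:**
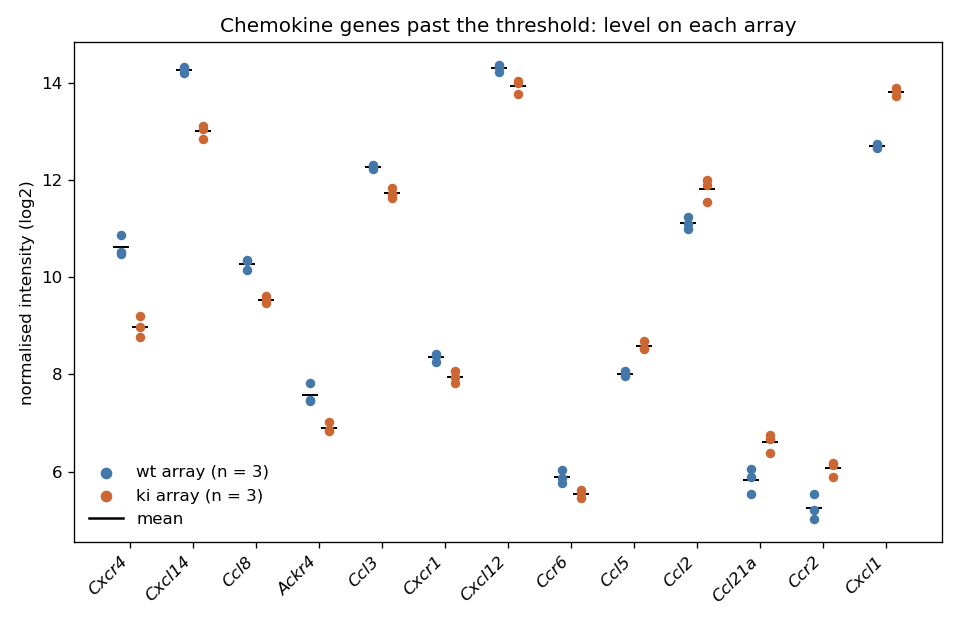
Normalised log2 intensity on each array for the 13 chemokine genes that passed, with wt arrays in blue, ki arrays in orange (n = 3 each) and a black bar at each mean. In all 13 genes the genotypes do not overlap; heights are comparable between genotypes of a gene and not between genes.

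Cxcl14, a CXC ligand that many epithelia make without stimulation, fell the most among the ligands chosen by symbol. It read 14.33, 14.27 and 14.20 in wt and 13.11, 13.05 and 12.85 in ki. Every ki array was more than a log2 unit below every wt array. The fall was 2.39-fold (log2 difference -1.26, SE 0.09, 95% confidence interval -1.48 to -1.04, adjusted p = 0.000296), and the gene's other probe gave -1.33.

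Cxcl12, the stromal ligand that retains blood progenitors and lymphocytes in tissue niches, and its signalling receptor Cxcr4 were both lower in ki. Cxcr4 read 10.86, 10.47 and 10.52 in wt and 9.20, 8.98 and 8.76 in ki. The wt and ki arrays were more than a log2 unit apart at their closest, and the fall of 3.11-fold was the largest among the 31 tested members (log2 difference -1.64, SE 0.15, 95% confidence interval -1.99 to -1.28, adjusted p = 0.000701). Cxcl12 read 14.36, 14.22 and 14.32 in wt and 13.77, 14 and 14.04 in ki, without overlap. Its fall was 1.29-fold (log2 difference -0.37, SE 0.09, adjusted p = 0.0398), and 3 other detected probes gave -0.47, -0.25 and -0.50. That call passed in 11 of 20 alternatives and, among those that left out 1 array, passed only without ki 3 (adjusted p 0.0492 to 0.12). Ackr3, the atypical receptor that scavenges Cxcl12, was detected on no array. Fibroblast markers had a median difference of -0.33, with 5 of 10 lower (50%, against 8.31% of all genes). Among the lower ones were the collagens Col1a2 (2.33-fold) and Col3a1 (1.31-fold) and the surface protein Thy1 (1.51-fold). The summed intensity of the 10 fibroblast markers was 126900 to 136600 in wt and 107800 to 114300 in ki. Their part in the Cxcl12, Cxcl14 and Cxcr4 results was not tested. Neutrophil markers were lower on the same arrays (median log2 difference -2.29 over 10 tested). Their part in the Cxcr4 result was not tested either.

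The remaining CXC ligands did not pass. Cxcl13, which guides B cells through Cxcr5, differed by -0.16 (adjusted p = 0.148) with no overlap between genotypes. Cxcl16, a membrane-tethered ligand of Cxcr6, differed by 0.07 (adjusted p = 0.464), and its other probe gave -0.01. Cxcl10, an interferon-induced ligand of Cxcr3, differed by 0.20 with a wide interval (95% confidence interval -0.18 to 0.59, adjusted p = 0.434). The other interferon-induced ligands of that receptor, Cxcl9 and Cxcl11, were detected on no array, as were Cxcl17 and the receptors Cxcr3, Cxcr5 and Cxcr6.

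Ccl2 and its receptor Ccr2, which together bring monocytes out of the marrow and into tissue, were both higher in ki. Ccl2 read 11.09, 10.99 and 11.24 in wt and 12, 11.89 and 11.54 in ki. The ki arrays all lay above the wt arrays, with ki 3 the nearest to them. The rise was 1.63-fold (log2 difference 0.70, SE 0.14, adjusted p = 0.0141), and it did not pass without wt 1 or wt 2 (adjusted p up to 0.0534). Ccr2 read 5.02, 5.54 and 5.22 in wt and 5.90, 6.14 and 6.18 in ki. It was detected on no wt array and on all 3 ki arrays, so its rise is given as at least 1.26-fold (adjusted p = 0.0115). Its fitted difference moved from 0.81 to 1.35 without the further background correction and to 1.38 in the authors' normalised intensities, and it was 0.48 with an offset of 50. A 2nd Ccr2 probe was detected on no array.

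Ccl8, in the mouse a ligand of Ccr8 that attracts T helper cells, moved in the opposite direction to Ccl2. It read 10.33, 10.15 and 10.35 in wt and 9.60, 9.46 and 9.55 in ki, without overlap, a fall of 1.67-fold (log2 difference -0.74, SE 0.08, adjusted p = 0.00167). Its receptor Ccr8 was detected on no array. Between Ccl2 and Ccl8 on chromosome 11 lie Ccl7, Ccl11 and Ccl12, in that order. None of these passed. Ccl7, another ligand of Ccr2, differed by 0.16 without overlap (adjusted p = 0.128). The eosinophil attractant Ccl11 differed by -0.05 (adjusted p = 0.692) and the Ccr2 ligand Ccl12 by -0.16 (adjusted p = 0.302). The neighbouring genes of this cluster thus included 1 that rose and 1 that fell.

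The other CC cluster on chromosome 11 holds Ccl5, Ccl9, Ccl6, Ccl3 and Ccl4 in that order, and here too 1 gene rose and 1 fell. Ccl5, a ligand that attracts T cells and monocytes, read 7.96, 8.08 and 8.01 in wt and 8.55, 8.69 and 8.53 in ki. The genotypes did not overlap, and the rise was 1.49-fold (log2 difference 0.57, SE 0.08, adjusted p = 0.00333). Ccl3, a macrophage inflammatory protein that attracts leukocytes, read 12.23, 12.31 and 12.27 in wt and 11.70, 11.84 and 11.63 in ki. It fell 1.46-fold, again without overlap (log2 difference -0.55, SE 0.08, adjusted p = 0.00433). Its close relative Ccl4 differed by -0.24 without overlap and did not pass (95% confidence interval -0.45 to -0.04, adjusted p = 0.105). The Ccr1 ligands Ccl6 and Ccl9 differed by 0.23 and 0.02 (adjusted p = 0.204 and 0.878). Ccr1 and Ccr3 were detected on no array.

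Macrophages make several of these CC ligands. Of 11 tested macrophage markers 5 passed (45.5%, against 18.0% of all genes), 4 of them lower in ki and 1 higher. The lower ones included the chitinase-like protein Chil3 (2.18-fold), the complement subunit C1qc (1.34-fold) and the integrin Itgam (1.26-fold). Adgre1 was the higher one (1.32-fold). The summed intensity of the 11 markers was 150000 to 152200 in wt and 131500 to 138600 in ki. Between 2 and 5 macrophage markers passed when 1 array was left out, and Adgre1 passed in 2 of the 6 such fits and Itgam in 3. Their part in the results for Ccl2, Ccl3, Ccl5, Ccl8 and Ccr2 was not tested.

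Ccl21a, a ligand of Ccr7 that draws naive T cells and dendritic cells to lymph nodes, was higher in ki at a low signal. It read 5.54, 5.89 and 6.05 in wt, where 2 arrays detected it, and 6.76, 6.66 and 6.38 in ki, where all 3 did. The genotypes did not overlap, and the difference was 0.77 (SE 0.16, adjusted p = 0.0173), a call lost without ki 1 or ki 2 (adjusted p up to 0.0577). The call was also lost when the fit was blocked on replicate number. The mouse genome holds near-identical Ccl21 genes that a probe may not separate. Ccl21c, one of them, has 2 probes of its own, 1 detected on 1 ki array and the other on no array. Ccl19, the other ligand of Ccr7, differed by 0.45 with overlap (95% confidence interval -0.02 to 0.91, adjusted p = 0.169), and Ccr7 was detected on no array. Ackr4, the atypical receptor that takes up Ccl19, Ccl21 and Ccl25, was lower in ki: it read 7.45, 7.47 and 7.82 in wt and 6.86, 6.83 and 7.03 in ki, without overlap. Its fall was 1.60-fold (log2 difference -0.68, SE 0.12, adjusted p = 0.0107). It rests on 1 probe, as the gene's 3 other probes were detected on no array.

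Among the other ligands of lymphocytes and dendritic cells none passed. Ccl20, the ligand of Ccr6, differed by 0.21 (adjusted p = 0.209). Ccr6 itself was lower and near background: it read 5.77, 6.04 and 5.88 in wt, where all 3 arrays detected it, and 5.62, 5.45 and 5.55 in ki, where none did. That gives a fall of at least 1.10-fold (adjusted p = 0.0416), which passed in 6 of 19 alternatives and, of the fits that left out 1 array, only in that without wt 1. Ccl17, a Ccr4 ligand detected on 2 arrays of each genotype, differed by -0.23 (adjusted p = 0.547). Ccl25, a ligand of Ccr9, differed by 0.06 (adjusted p = 0.693), and its other probes gave 0.03 and -0.54. Ccl27a, a ligand of Ccr10, differed by 0.00479 (adjusted p = 0.98), and its other probe gave -0.09. Ccr4, Ccr9 and Ccr10 were detected on no array. Of the T cell markers, Cd3e and Cd2 were detected and did not pass (adjusted p = 0.626 and 0.235), while Cd3d, Cd3g, Cd4 and Cd8a were not tested, nor were any of 3 B cell markers.

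Cx3cl1, a ligand tethered to the cell surface, differed by 0.11 (adjusted p = 0.511). Its receptor Cx3cr1, found on monocytes and macrophages, read 9.59, 9.82 and 10.26 in wt and 10.53, 10.15 and 10.96 in ki. The ki 2 array lay below wt 3, and the difference of 0.66 with its wide interval (0.08 to 1.24) did not pass (adjusted p = 0.115). Ackr2, which scavenges inflammatory CC chemokines, differed by -0.07 with overlap (95% confidence interval -0.47 to 0.32, adjusted p = 0.791). Ackr1, the Duffy receptor, was detected on 1 wt array and was not tested.

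**Figure D4:**
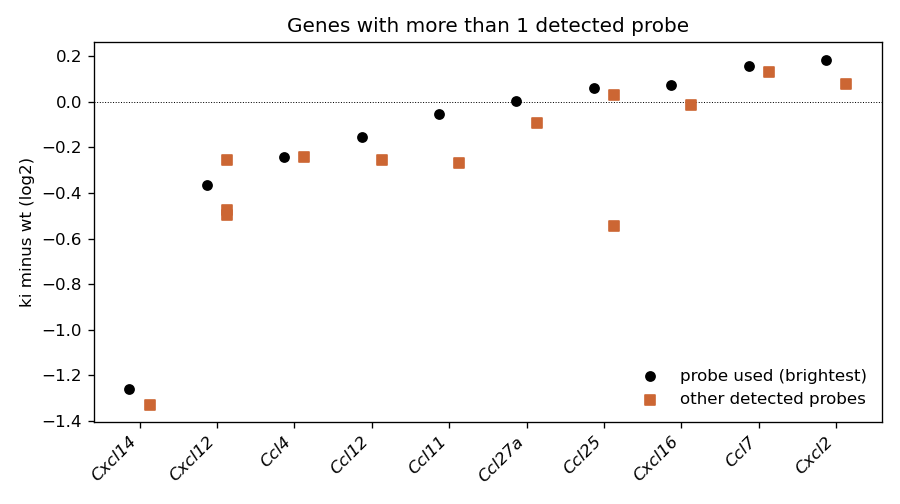
Difference between genotypes (ki minus wt, log2) for each detected probe of the 10 chemokine genes with more than 1 detected probe; black points are the brightest probe, used for the gene, and orange squares are the others. The probes of Cxcl14 and of Cxcl12 all lie below 0, and those of Ccl25, Ccl27a and Cxcl16 lie on both sides of it.

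Several probes allowed a check within a gene. Of the 10 genes with more than 1 detected probe, 7 had probes of one sign and 3 did not, namely Ccl25, Ccl27a and Cxcl16, none of which passed. The second detected probes of Ccl4, Ccl7, Ccl11, Ccl12 and Cxcl2 gave -0.24, 0.13, -0.27, -0.26 and 0.08, each with the sign of the probe used.

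In all, 24 members were detected on no array. The ligands among them were Cxcl3, Cxcl15, Cxcl9, Cxcl11, Cxcl17, Ccl1, Ccl22, Ccl24, Ccl26, Ccl28 and Xcl1. The receptors were Ccr1, Ccr3, Ccr4, Ccr7, Ccr8, Ccr9, Ccr10, Cxcr2, Cxcr3, Cxcr5, Cxcr6, Xcr1 and Ackr3. For these genes the array sets no level, and a transcript below its detection limit cannot be told from an absent one. Of the 21 receptors 7 were tested, and of these Cxcr4, Cxcr1, Ackr4 and Ccr6 fell, Ccr2 rose and Cx3cr1 and Ackr2 did not pass. Of all genes tested 18.0% passed, 9.74% as higher in ki and 8.31% as lower. Ccr6 was detected in wt alone and Ccr2 in ki alone, so each entered the test through the genotype where it was higher. With 7 tested and 2 of them entering in this way, no share is drawn for the receptors.

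Genes that work with chemokines were described from 8 lists chosen from textbook knowledge, with earlier results of these data known. Of 12 tested platelet ligands, chemokine-like factors and their receptors, 1 rose and 3 fell (33.3% passing, against 18.0% of all genes; median -0.12, against 0.01). The platelet CXC ligands Ppbp and Pf4 fell 3.20-fold and 2.26-fold, and Ccrl2, a receptor that presents the attractant chemerin, fell 1.65-fold. Cd74, the invariant chain, which also serves as receptor of the cytokine Mif, rose 2.50-fold (adjusted p = 0.000123). Of 23 tested genes that carry the receptor signal, 3 rose and 2 fell (median 0.03), and this share of 21.7% is near the 18.0% of all genes. The kinase Ptk2b rose by 0.55, Rac2, a small GTPase of blood cells, by 0.58, and Dock2, an activator of Rac in leukocytes, at least 1.38-fold from undetected in wt. The kinase Jak2 fell by 0.52 and Rgs16, which ends G protein signals, by 0.36. Rac2 passed in 1 of the 6 fits without 1 array, and Rgs16 in 4.

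Upstream of the ligand genes, 3 of 11 tested NF-kB subunits and inhibitors rose and none fell (27.3% higher, against 9.74% of all genes; median 0.13). These were the inhibitors Tnfaip3 (0.80, adjusted p = 0.000653) and Nfkbia (0.50, adjusted p = 0.011), both themselves induced by NF-kB, and the subunit Nfkb2 (0.37, adjusted p = 0.0126). Of 13 tested interferon response genes 6 rose and none fell (46.2% higher, against 9.74%; median 0.23), among them the GTPases Gbp3 (0.66) and Gbp2 (0.48) and the factor Irf1 (0.56). With median scaling over all probes 1 gene of the first list and 1 of the second passed. Of 17 tested receptors and adaptors that induce chemokine genes, none rose and 3 fell (median -0.05), a share of 17.6% passing, near the 18.0% of all genes. They were Il17ra (-0.41), Tnfrsf1a (-0.41) and the lipopolysaccharide co-receptor Cd14 (-0.30), and 0 to 1 genes of this list passed when 1 array was left out. Of 10 tested regulators of AU-rich mRNA decay, 2 fell and none rose (median 0.05), again near the background at 20% passing against 18.0%. Zfp36, which speeds the decay of such mRNAs, fell by 0.41 (adjusted p = 0.0129), and Zfp36l2, undetected in ki, fell at least 1.12-fold, a call that passed in 1 of the 6 fits without 1 array.

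The split between higher and lower calls moved with the scaling of the arrays. Scaling each array to its median over all probes moved the median gene to -0.22 and changed the split of chemokine calls from 5 higher and 8 lower to 3 higher and 9 lower, as it changed all genes from 1014 higher and 865 lower to 401 and 1511. Under that scaling Ccl2 (0.43, adjusted p = 0.0831) and Ccl5 (0.37, adjusted p = 0.136) no longer passed, and relative to the median gene they stood at 0.64 and 0.59. Ccr6 was also lost, while Ccl4 (-0.56, adjusted p = 0.0172) and Ccl12 (-0.48, adjusted p = 0.0487) then passed. In that fit Ackr2, Ackr4, Ccl2, Ccl11, Ccl12, Ccl17 and Ccl19 all had the same SE of 0.183. As reported, their SE ran from 0.0784 (Ccl11) to 0.237 (Ccl17). For these genes the SE of that fit thus did not follow the gene's own spread. Calls under that scaling differ from those reported in the SE as well as in the median. Which of these changed a call was not tested. The number of arrays limits what could be called: the smallest difference that passed among all genes was 0.23.

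**Figure D5:**
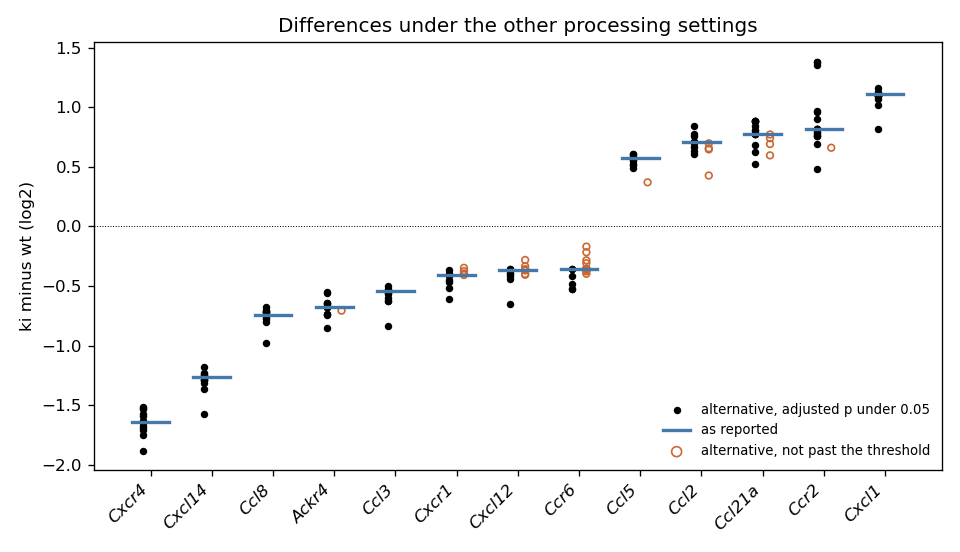
Difference between genotypes (ki minus wt, log2) of the 13 chemokine genes that passed, as reported (blue bar) and under each alternative processing (filled black points where the gene still passed, open orange circles where it did not). No gene crosses 0; Cxcr4, Cxcl14, Ccl8, Ccl3 and Cxcl1 have filled points only, and Ccr6 has the most open circles.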

How the data were processed

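The authors deposited probe intensities not normalised between arrays, whose negative values (28.59 to 32.02% of probes) show that background had been subtracted, together with normalised intensities and, per the file headers, a detection p-value for each probe and array. Of the scanner software and the authors' normalisation, the labels and headers say nothing (not given in the sources used here). The series values equal the authors' normalised intensities in 100% of cells.

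Starting from the intensities that were not normalised, limma 3.58.1 (R 4.3.3) corrected the background by normexp, with the negative controls' parameters derived from detection p-values. An offset of 16, quantile normalisation and log2 followed. Symbols came from the platform annotation (34885 probes with 1 symbol, 18 with several, 10378 with none) and were checked through the gene identifier. Probes with 1 symbol, detected at p under 0.05 on at least 3 arrays, were kept, and the brightest probe stood for its gene, leaving 10412 genes. The genotypes were compared by lmFit and eBayes, which left 4 residual degrees of freedom, with Benjamini-Hochberg adjustment. On the log2 scale the residual SD had a median of 0.119. For a probe undetected on every array of a genotype, a fold is a bound against the lowest detected level there.

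The members and the gene lists were chosen with earlier results of these data known. Every tested member was named, and of each other list up to 3 higher and 3 lower passing genes by smallest p. Cd2, Cd3e, Xist, Eif2s3y, Kdm5d and the p38 genes were added. The fit was tested on simulated data. Alternatives changed background, scaling, offset, detection filter, moderation, weights and probe choice, blocked on replicate number, and left out arrays; 2 of the 20, the fit over all probes and the removal of an array pair, were chosen after seeing the data. The plots used matplotlib 3.10.9 under Python 3.11.15.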

Additional observations from a re-analysis of the deposited data

How the results depend on the processing

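Across 20 alternatives, gene differences kept their direction and their side of the threshold in 543 cases, lost the call in 37, gained it in 9 and turned in sign in 27; no passing gene turned in sign. List counts stayed within 1.5 times in 297 cases and moved further in 63. The authors' normalised intensities and the series values are equal, so their cases are counted in both. Removing the wt array of highest and the ki array of lowest mean signal left 873 genes passing and 7 chemokine genes, 2 higher and 5 lower; fewer samples enter that fit. Leaving out 1 array gave 1221 to 1470 genes, 4 to 5 higher chemokine genes and 5 to 7 lower ones, with 5 lower without wt 2, wt 3 or ki 1. Higher chemokine genes numbered 3 with median scaling over all probes, where Ccl2 and Ccl5 did not pass. They numbered 3 of 27 tested with detection at p under 0.01 on all arrays, a filter that dropped Ccr2 and Ccl21a. With trend and robust moderation they numbered 8, and the cause of that rise was not tested. Ackr4 (adjusted p = 0.0588) and Ccr2 (0.0799) were lost under the pair removal alone, and Ccl2 (0.109) and Ccl21a (0.0923) also there. Cxcl12 and Ccr6 did not pass under the pair removal either.

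Genes that turned in sign had not passed. Under median scaling over all probes, which lowered the median gene to -0.22, they were Ccl20 (-0.000705), Ccl25 (-0.134), Ccl27a (-0.221), Ccl6 (-0.0728), Ccl7 (-0.134), Ccl9 (-0.283), Cx3cl1 (-0.099), Cxcl16 (-0.211) and Cxcl2 (-0.0964). Under scaling over detected probes they were Ccl27a (-0.0137), Ccl9 (-0.075) and Cxcl16 (-0.00352). Ccl27a was -0.00148 in the authors' normalised and in the series values, -0.0346 with array weights, -0.0433 with the mean of probes and -0.0786 under the pair removal, and Ccl25 was -0.151 with the mean of probes. Without 1 array, Ackr2 ranged from -0.227 to 0.0441, Ccl11 from -0.108 to 0.00329, Ccl25 from -0.00789 to 0.12, Ccl27a from -0.0555 to 0.115 and Ccl9 from -0.0198 to 0.0528.

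Same-numbered arrays of the genotypes correlated in their deviations at 0.0039, 0.0143 and 0.105, and differently numbered ones at -0.116 to 0.109. With 3 arrays in each genotype these values cannot show whether the numbers pair the samples. With the replicate block 1510 genes and 11 chemokine genes passed, 5 higher and 6 lower. Ccl21a, Cxcl12 and Ccr6 did not pass with the block. The 5 higher genes are thus not those reported, as a gene that had not passed joined them. A slide block was not run, since no slide is named in the headers. Signal over background limits Ccr2, Ccr6, Ccl17 and Ccl21a, each undetected on some arrays.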

Other observations

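Of the proteins that hold or cut chemokines outside the cell, some genes passed and most did not. Heparan sulfate chains bind chemokines at the cell surface, and of 15 tested carriers and enzymes of these chains 4 rose and 1 fell in ki (33.3% passing, against 18.0% of all genes; median 0.18), and 2 passed under median scaling over all probes. The core protein Sdc2 rose 1.42-fold (adjusted p = 0.00256), the sulfatase Sulf2 1.43-fold (adjusted p = 0.00368) and the sulfotransferase Hs3st1 1.70-fold (adjusted p = 0.0218), while the core protein Gpc1 fell 1.53-fold (adjusted p = 0.00186). Hs3st1 passed in 2 of the 6 fits that left out 1 array, and Sdc2 and Sulf2 did not pass under median scaling over all probes.

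Of 15 tested proteases that cut or shed chemokines, 2 rose and 5 fell (46.7% passing, against 18.0%; median -0.10). The macrophage elastase Mmp12 read 9.38, 9.56 and 9.45 in wt and 11.54, 11.73 and 11.38 in ki, a 4.24-fold rise. Dpp4, which trims Cxcl12 and other chemokines at their amino end, read 6.96, 7.19 and 7.41 in wt and 9.23, 9.06 and 9.16 in ki, a 3.89-fold rise (adjusted p = 0.000159). Neither set of arrays overlapped. Among those that fell were the neutrophil enzymes Ctsg (at least 3.89-fold, undetected in ki) and Elane (3.66-fold), which are also in the neutrophil marker list, and the lysosomal protease Ctsl (1.70-fold).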
